A study of Mus musculus with 20 samples.

Results

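The response to irradiation of CD11c+CD11b+ myeloid cells was read from 5 of the 20 libraries of a study of irradiated MC38-OVA tumours. These 5 are all the libraries sorted as CD11c+CD11b+, taken by their titles. The 4 irradiated ones (RT, RT+aSIRPa, RT+aPD1 and RT+aSIRPa+aPD1) were compared with the untreated one. MC38-OVA is a mouse colon carcinoma line that expresses ovalbumin, and it was grown in C57BL/6 mice. Irradiated tumours received a focal dose of 8 Gy on day 12, without an antibody (RT), with 400 µg doses of anti-SIRPa (RT+aSIRPa), with 250 µg doses of anti-PD-1 (RT+aPD1) or with both antibodies (the combined library). Untreated tumours received no irradiation and no antibody, and the series' design calls them sham-irradiated. All tumours were taken on day 17, which is 5 days after irradiation. Each library came from leukocytes pooled from 10 tumours of 10 mice, so each treatment was a single pool and the spread between libraries is the spread between differently treated pools.

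Ionising radiation breaks DNA, and DNA that reaches the cytosol of tumour or immune cells is bound by cGAS, which signals through STING to produce type I interferon. Interferons act on myeloid cells through JAK and STAT proteins and switch on a broad set of interferon-stimulated genes, among them sensors of nucleic acids, guanylate-binding proteins, chemokines and Fc receptors. Trex1 is a DNA exonuclease that removes cytosolic DNA, and Irf7 is a transcription factor that amplifies the interferon response. CD11c and CD11b together are carried by type 2 conventional dendritic cells (cDC2) and also by many tumour macrophages and monocyte-derived cells.

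In irradiated CD11c+CD11b+ cells, genes known for induction by interferon were among those that rose, and genes known from monocytes and stromal cells among those that fell. Trex1, Gbp6, Cxcl11, Ly6a, Irf7, Tlr9, Fcgr1, Fcgr4, Cfb, Ccl7, Pf4 and Ms4a7 rose. Chil3, Vcan, Cxcl1, Postn, Enpp2, Mmp2 and Lif fell. Of 16553 genes tested with edgeR's quasi-likelihood test, 147 had an adjusted p under 0.05 (0.888%). Of these, 103 were higher after irradiation (0.622%) and 44 were lower (0.266%), and the median log2 fold change of all genes tested was 0.02. Log2 fold changes are given throughout as irradiated over untreated, levels are normalised CPM (counts scaled to a common library size), errors of a log2 fold change are approximate standard errors, and adjusted p-values are from this edgeR test unless another is named. In counts of list members, rose and fell mean an adjusted p under 0.05 in that direction. Such counts are to be read beside the 0.622% and 0.266% of all genes tested. Of all genes tested, 29.6% lay above the untreated library in all 4 irradiated ones and 29.5% below it. The number of calls depended on single libraries. Without the RT library 0 genes passed (2047 at an unadjusted p under 0.05), without the combined library 1 gene passed, without the RT+aPD1 library 306 passed and without the RT+aSIRPa library 1910 passed. The untreated library is single and was assumed to vary like the irradiated ones.

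Sequences upstream of the genes that rose are shown because a short interferon motif recurred in them. The interferon-stimulated response element (ISRE) is bound by interferon regulatory factors and by the STAT complex that type I interferon activates. It was searched as GAAA, any 2 bases and GAAA again, on both strands, from 250 bases before to 50 bases after the annotated start, in RefSeq promoter sequences of build GRCm38.p6. A promoter was found for 82 of the 103 higher genes, and 23 of these (28.1%) held the motif. Of 34 lower genes with a promoter, 0 held it, and of 10667 tested genes with a promoter, 434 (4.07%) held it. Across all 32851 promoters in that table the share was 3.44%. The shorter gamma-activated motif TTCNNNGAA was held by 10 of the 82 higher genes (12.2%), 8 of the 34 lower genes (23.5%) and 8.44% of the tested genes. The promoters of Calhm6, Ifi208, Fcgr4 and Irgm2 show where the ISRE lay in 4 genes that rose, with the match in capitals:
Calhm6, chr10:34127923-34128222, minus strand: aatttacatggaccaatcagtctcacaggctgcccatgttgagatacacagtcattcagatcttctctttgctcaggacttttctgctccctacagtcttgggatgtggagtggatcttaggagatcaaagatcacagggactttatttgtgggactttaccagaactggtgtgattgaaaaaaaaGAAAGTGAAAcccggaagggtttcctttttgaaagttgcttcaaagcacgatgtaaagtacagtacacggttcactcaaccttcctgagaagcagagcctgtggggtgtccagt
Ifi208, chr1:173673415-173673714, plus strand: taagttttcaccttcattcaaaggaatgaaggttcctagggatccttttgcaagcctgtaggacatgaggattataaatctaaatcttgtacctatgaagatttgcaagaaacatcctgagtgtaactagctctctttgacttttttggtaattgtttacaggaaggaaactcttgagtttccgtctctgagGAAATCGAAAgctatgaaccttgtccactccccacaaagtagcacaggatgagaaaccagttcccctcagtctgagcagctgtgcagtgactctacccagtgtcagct
Fcgr4, chr1:171018676-171018975, plus strand: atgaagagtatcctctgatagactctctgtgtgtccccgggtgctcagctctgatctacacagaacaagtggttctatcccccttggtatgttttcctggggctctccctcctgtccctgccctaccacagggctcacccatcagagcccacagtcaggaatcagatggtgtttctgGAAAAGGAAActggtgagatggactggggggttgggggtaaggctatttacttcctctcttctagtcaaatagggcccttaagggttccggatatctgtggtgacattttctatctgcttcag
Irgm2, chr11:58214727-58215026, plus strand: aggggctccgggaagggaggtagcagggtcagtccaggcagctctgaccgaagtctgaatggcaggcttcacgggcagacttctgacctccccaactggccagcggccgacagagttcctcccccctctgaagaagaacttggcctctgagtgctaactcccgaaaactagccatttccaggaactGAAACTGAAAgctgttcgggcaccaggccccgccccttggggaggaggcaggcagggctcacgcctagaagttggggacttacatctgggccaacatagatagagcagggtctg
The match began 64, 58, 73 and 64 bases before the annotated start of Calhm6, Ifi208, Fcgr4 and Irgm2. The windows of Trex1, Irf7, Tlr9, Fcgr1 and Chil3 held no match, which says only that these letters are absent there. Promoters of Cxcl11, Gbp6, Ly6a and Siglec1 were not used here.

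Trex1 (chr9:109057933-109059734, GRCm38) stood far above the untreated level in every irradiated library. It had 67.8, 65.1, 70.5 and 73.1 CPM in the RT, RT+aSIRPa, RT+aPD1 and combined libraries, against 17.6 CPM in the untreated library. The 4 irradiated values lay close together and none came near the untreated one. The log2 fold change was 1.98 ± 0.14 (adjusted p = 0.0216). Trex1 shares exon bases with Atrip on the same strand, and Atrip, a partner of the checkpoint kinase ATR, had 72.3 to 96.3 CPM in irradiated cells and 73.7 CPM in untreated cells (log2 fold change 0.22, adjusted p = 0.527).

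Among the other measured nucleic acid sensors and nucleases, Tlr9, Tlr3 and Zbp1 also rose. With Trex1, 4 of 21 rose and 0 fell, the median log2 fold change was 0.67, and 18 lay above the untreated library in all 4 irradiated ones, as did 29.6% of all genes tested. Tlr9, the endosomal receptor for unmethylated CpG DNA, had 314, 281, 330 and 386 CPM in the RT, RT+aSIRPa, RT+aPD1 and combined libraries, against 122 CPM in the untreated one (log2 fold change 1.42 ± 0.20, adjusted p = 0.0475). Tlr3, which senses double-stranded RNA, averaged 76.1 ± 8.12 CPM after irradiation (SD, n = 4) and 34.5 CPM without it. Zbp1, a sensor of left-handed nucleic acids, averaged 366 ± 18.2 CPM after irradiation (SD, n = 4) and 188 CPM without it. Cgas itself had 32.5 to 39.0 CPM in irradiated cells and 24.4 CPM in untreated cells, and it did not pass (adjusted p = 0.136). Tmem173, which encodes STING, had 124 to 154 CPM in irradiated cells against 105 CPM in untreated cells (adjusted p = 0.21).

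Every measured member of the type I interferon list was higher in all 4 irradiated libraries than in the untreated one, 36 of 36. Of all genes tested, 29.6% were so. Of the 36, 7 passed the test upward and 0 downward, beside 0.622% and 0.266% of all genes tested. Irf7, Ifit2, Oas3, Oasl1, Rtp4, Usp18 and Xaf1 were the 7. The median log2 fold change of the list was 0.83, with a range from 0.27 to 1.31, beside 0.02 for all genes tested. The summed level of the list was 11520, 10476, 11005 and 12010 CPM in the RT, RT+aSIRPa, RT+aPD1 and combined libraries, against 6206 CPM in the untreated library. The irradiated sums thus differed among themselves by far less than from the untreated sum.

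Irf7 (chr7:141262706-141266481) had 1028, 940, 936 and 1069 CPM in the RT, RT+aSIRPa, RT+aPD1 and combined libraries, against 401 CPM in the untreated library. All 4 irradiated values exceeded the untreated one, with a log2 fold change of 1.31 ± 0.15 (adjusted p = 0.0398). Rtp4, a chaperone induced by interferon, varied little among irradiated libraries, with 165 to 169 CPM against 75.6 CPM in untreated cells (log2 fold change 1.14 ± 0.11). Oas3 and Oasl1, of the OAS family, averaged 451 ± 42.5 and 231 ± 13.3 CPM after irradiation (SD, n = 4), against 202 and 111 CPM without it. Usp18, which removes ISG15 from proteins and dampens interferon signalling, averaged 155 ± 12.3 CPM after irradiation (SD, n = 4) and 81.1 CPM without it. The widely used markers Isg15, Ifit1 and Mx1 had adjusted p-values of 0.0722, 0.0984 and 0.0568 and log2 fold changes of 0.86, 0.72 and 0.86.

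**Figure D1:**
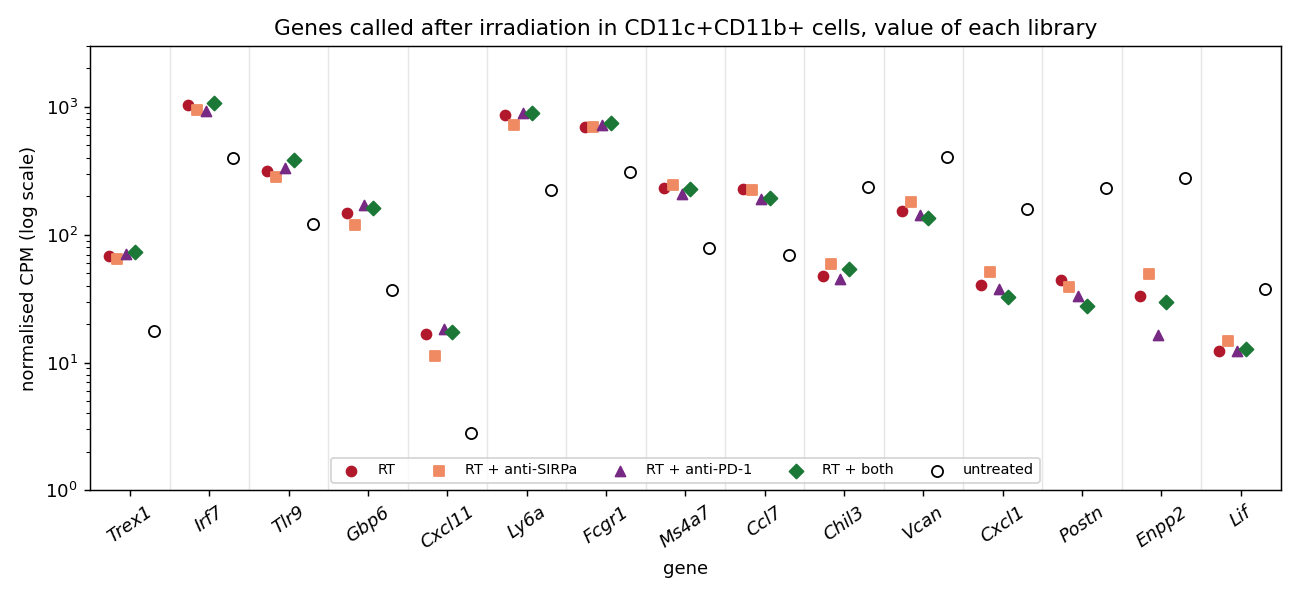
Normalised CPM on a log axis for 15 genes called after irradiation in CD11c+CD11b+ cells. Filled symbols are the RT, RT+aSIRPa, RT+aPD1 and combined libraries and the open circle to their right is the untreated library. Trex1 lies at 65.1 to 73.1 CPM in irradiated cells against 17.6 CPM untreated, and Chil3 at 45.4 to 58.9 CPM against 237 CPM.

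The interferon-inducible GTPases, which attack vacuoles that hold pathogens, had the largest list median of these interferon lists. All 18 measured members lay above the untreated library in all 4 irradiated ones, as did 29.6% of all genes tested. The median log2 fold change was 1.23, and 2 passed, Gbp6 and Irgm2. Gbp6 (chr5:105270702-105293698) had 147, 119, 172 and 163 CPM in the RT, RT+aSIRPa, RT+aPD1 and combined libraries, against 36.6 CPM in the untreated one. Its lowest irradiated value was the RT+aSIRPa one and still stood well clear of the untreated value (log2 fold change 2.04 ± 0.23, adjusted p = 0.0381). A share of 0.317 of the Gbp6 difference came from transcript rows at 0 in a whole group, and Gbp6 shares exon bases on its strand with Gm43302. Irgm2 averaged 155 ± 18.8 CPM after irradiation (SD, n = 4) and 64.4 CPM without it. Irgm2 shares exon bases with its neighbour Igtp on the same strand, and Igtp had 175 to 245 CPM in irradiated cells and 91.5 CPM in untreated cells. Gbp11, Gbp8 and Tgtp1 had log2 fold changes of 2.53, 1.71 and 1.60 and did not pass, with adjusted p-values of 0.0824, 0.115 and 0.0744. Within this list the median of the ratios to the untreated library was 1.21 in the RT, 0.85 in the RT+aSIRPa, 1.28 in the RT+aPD1 and 1.43 in the combined library on the log2 scale. Members of this and other families listed here are close paralogs, so reads could have been split between them by the counting.

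Genes known for induction by interferon gamma included Cxcl11, Ly6a and Fcgr1. These were the 3 of 17 measured members that passed upward, and 0 passed downward. All 17 had a positive log2 fold change, with a median of 0.87. In all 4 irradiated libraries 15 lay above the untreated one, as did 29.6% of all genes tested. Cxcl11 (chr5:92359544-92365485), a ligand of the T cell chemokine receptor CXCR3, had 16.8, 11.1, 18.3 and 17.4 CPM in the RT, RT+aSIRPa, RT+aPD1 and combined libraries, against 2.78 CPM in the untreated one. The irradiated values were low in absolute terms but did not overlap the untreated one (log2 fold change 2.51 ± 0.36, adjusted p = 0.0475). The annotation lists mouse Cxcl11 as a polymorphic pseudogene. Ly6a, which encodes the surface protein Sca-1, had 859, 728, 894 and 899 CPM in the RT, RT+aSIRPa, RT+aPD1 and combined libraries, against 222 CPM in the untreated one (log2 fold change 1.93 ± 0.18, adjusted p = 0.0381). The ligands Cxcl9 and Cxcl10 had log2 fold changes of 0.69 and 0.62 and did not pass (adjusted p = 0.223 and 0.117). Cd274, the ligand of PD-1, had 277 to 584 CPM in irradiated cells and 173 CPM in untreated cells, and it did not pass either (log2 fold change 1.26 ± 0.41, adjusted p = 0.186). Its lowest irradiated value was in the RT+aSIRPa library and its highest in the RT+aPD1 library.

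The interferons themselves were scarcely measured. Ifnb1 had 0.50 to 0.89 CPM in irradiated cells and 1.17 CPM in untreated cells, and Ifng had 1.71 to 3.24 CPM in irradiated cells and 1.94 CPM in untreated cells. Of 11 interferon, receptor and signalling genes measured, 0 passed in either direction, with a median log2 fold change of 0.33. Ifnar1, a chain of the type I interferon receptor, had 185 to 214 CPM in irradiated cells and 192 CPM in untreated cells.

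The classical genes of antigen presentation did not pass. Of 16 measured genes of MHC class I presentation, 0 passed in either direction, with a median log2 fold change of 0.48. In all 4 irradiated libraries 14 lay above the untreated one, beside 29.6% of all genes tested. B2m, the invariant light chain, had 3152 to 3702 CPM in irradiated cells against 2003 CPM in untreated cells (log2 fold change 0.80 ± 0.19, adjusted p = 0.105). The non-classical class I genes H2-T24, H2-T22, H2-T10 and H2-M3, singled out after their values were seen, passed with log2 fold changes of 1.19, 0.92, 0.93 and 0.85. Of 10 measured class II genes 0 passed, the median log2 fold change was 0.20 and 1 lay above the untreated library in all 4 irradiated ones. H2-Aa, a class II alpha chain, had 2129, 1400, 2083 and 2162 CPM in the RT, RT+aSIRPa, RT+aPD1 and combined libraries, against 1633 CPM in the untreated one, so the groups overlapped.

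Some families of myeloid genes held called members. Of 10 measured MS4A genes, which encode tetraspanning membrane proteins of myeloid cells, 5 rose and 0 fell, with a median log2 fold change of 1.15. Of all genes tested, 0.622% rose and 0.266% fell. The 5 were Ms4a7, Ms4a14, Ms4a4c, Ms4a6c and Ms4a6b. Ms4a7 had 234, 246, 210 and 227 CPM in the RT, RT+aSIRPa, RT+aPD1 and combined libraries, against 79.3 CPM in the untreated one (log2 fold change 1.53 ± 0.14, adjusted p = 0.0381). Of 6 Schlafen genes, which interferon induces and which restrain growth or RNA use, Slfn4 and Slfn8 rose. Slfn4 averaged 1437 ± 206 CPM after irradiation (SD, n = 4) and 499 CPM without it. Of 5 Ly6 genes only Ly6a passed, while Ly6c1, Ly6c2 and Ly6i had log2 fold changes of 1.23, 1.16 and 1.57 with adjusted p-values of 0.0528, 0.057 and 0.116.

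Fc receptors bind antibody and couple it to phagocytosis. All 5 measured ones lay above the untreated library in all 4 irradiated ones, as did 29.6% of all genes tested. The median log2 fold change was 0.83, and Fcgr1 and Fcgr4 passed. Fcgr1, the high-affinity IgG receptor, had 702, 691, 717 and 755 CPM in the RT, RT+aSIRPa, RT+aPD1 and combined libraries, against 307 CPM in the untreated one (log2 fold change 1.22 ± 0.13, adjusted p = 0.0381). Fcgr4 averaged 403 ± 48.5 CPM after irradiation (SD, n = 4) and 141 CPM without it (log2 fold change 1.52 ± 0.19). Their signalling partner Fcer1g had 538 to 625 CPM in irradiated cells and 330 CPM in untreated cells and did not pass (adjusted p = 0.0606). Since anti-SIRPa and anti-PD-1 are antibodies, the RT library is the one that shows these genes with no antibody given. Over all 103 higher genes the median log2 ratio to the untreated library was 1.20 in the RT, 1.07 in the RT+aSIRPa, 1.21 in the RT+aPD1 and 1.24 in the combined library. These genes were chosen by the same libraries, so the medians only describe them.

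Further receptors of myeloid cells that rose were singled out after their values were seen. Siglec1, a sialic acid receptor of macrophages that interferon induces, averaged 923 ± 51.4 CPM after irradiation (SD, n = 4) and 330 CPM without it (log2 fold change 1.48 ± 0.15). The C-type lectin genes Clec4a1, Clec4a3 and Clec4a2 had log2 fold changes of 1.42, 1.19 and 0.87, and the SIRP family genes Sirpb1a and Sirpb1b had 1.27 and 1.20. Other genes in the upper ranks by size were Calhm6, a channel protein of macrophages, which averaged 26.1 ± 4.35 CPM after irradiation (SD, n = 4) and 6.40 CPM without it (log2 fold change 2.02 ± 0.27), and Ifi208, of the IFI200 family, with 121 to 162 CPM in irradiated cells and 43.6 CPM in untreated cells (log2 fold change 1.74 ± 0.20). Ifit1bl1, Trim30c, Tmem171, Tnfsf8 and Nr1h3 passed with log2 fold changes of 1.87, 1.53, 1.56, 1.54 and 1.53. Nr1h3 encodes LXR alpha, a sterol-activated receptor, and Tnfsf8 is the ligand of CD30. Abca1 and Abcg1, cholesterol exporters that LXR controls, had log2 fold changes of 1.26 and 1.63 but did not pass (adjusted p = 0.128 and 0.098).

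Complement genes moved in both directions. Of 12 measured, Cfb, C3ar1 and C5ar1 were the 3 that rose and C1s1 was among those that fell, with a median log2 fold change of 0.84. Cfb, which encodes factor B of the alternative pathway, had 619, 621, 658 and 769 CPM in the RT, RT+aSIRPa, RT+aPD1 and combined libraries, against 224 CPM in the untreated one (log2 fold change 1.57 ± 0.18, adjusted p = 0.0381). A share of 0.456 of this difference came from transcript rows of Cfb at 0 in a whole group, and Cfb shares exon bases on its strand with the gene model Gm20547. C3ar1 and C5ar1, the receptors of the anaphylatoxins C3a and C5a, averaged 927 ± 76.0 and 311 ± 19.5 CPM after irradiation (SD, n = 4), against 372 and 169 CPM without it. C1s1, a protease of the classical pathway that fibroblasts also make, averaged 7.25 ± 1.68 CPM after irradiation (SD, n = 4) and 37.2 CPM without it.

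Of 21 measured chemokines, Cxcl11, Ccl7 and Pf4 rose and Cxcl1 fell, with a median log2 fold change of 0.17. Ccl7, which recruits monocytes, had 228, 224, 192 and 193 CPM in the RT, RT+aSIRPa, RT+aPD1 and combined libraries, against 69.0 CPM in the untreated one (log2 fold change 1.60 ± 0.16, adjusted p = 0.0381). Cxcl1, which recruits neutrophils, had 40.3, 51.2, 37.5 and 32.8 CPM in the RT, RT+aSIRPa, RT+aPD1 and combined libraries, against 158 CPM in the untreated one (log2 fold change -1.96 ± 0.21, adjusted p = 0.0381). Over the whole list, 13 members had a positive and 8 a negative log2 fold change, so Ccl7 and Cxcl1 do not stand for the other chemokines. Of 17 inflammatory cytokine genes Ebi3, a subunit of interleukins 27 and 35, rose and 0 fell. Ebi3 averaged 31.6 ± 1.93 CPM after irradiation (SD, n = 4) and 15.5 CPM without it. Lif, a cytokine of the interleukin 6 family, fell to 12.4, 14.6, 12.4 and 12.8 CPM in the RT, RT+aSIRPa, RT+aPD1 and combined libraries, against 37.8 CPM in the untreated one (log2 fold change -1.53 ± 0.16, adjusted p = 0.0381).

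**Figure D2:**
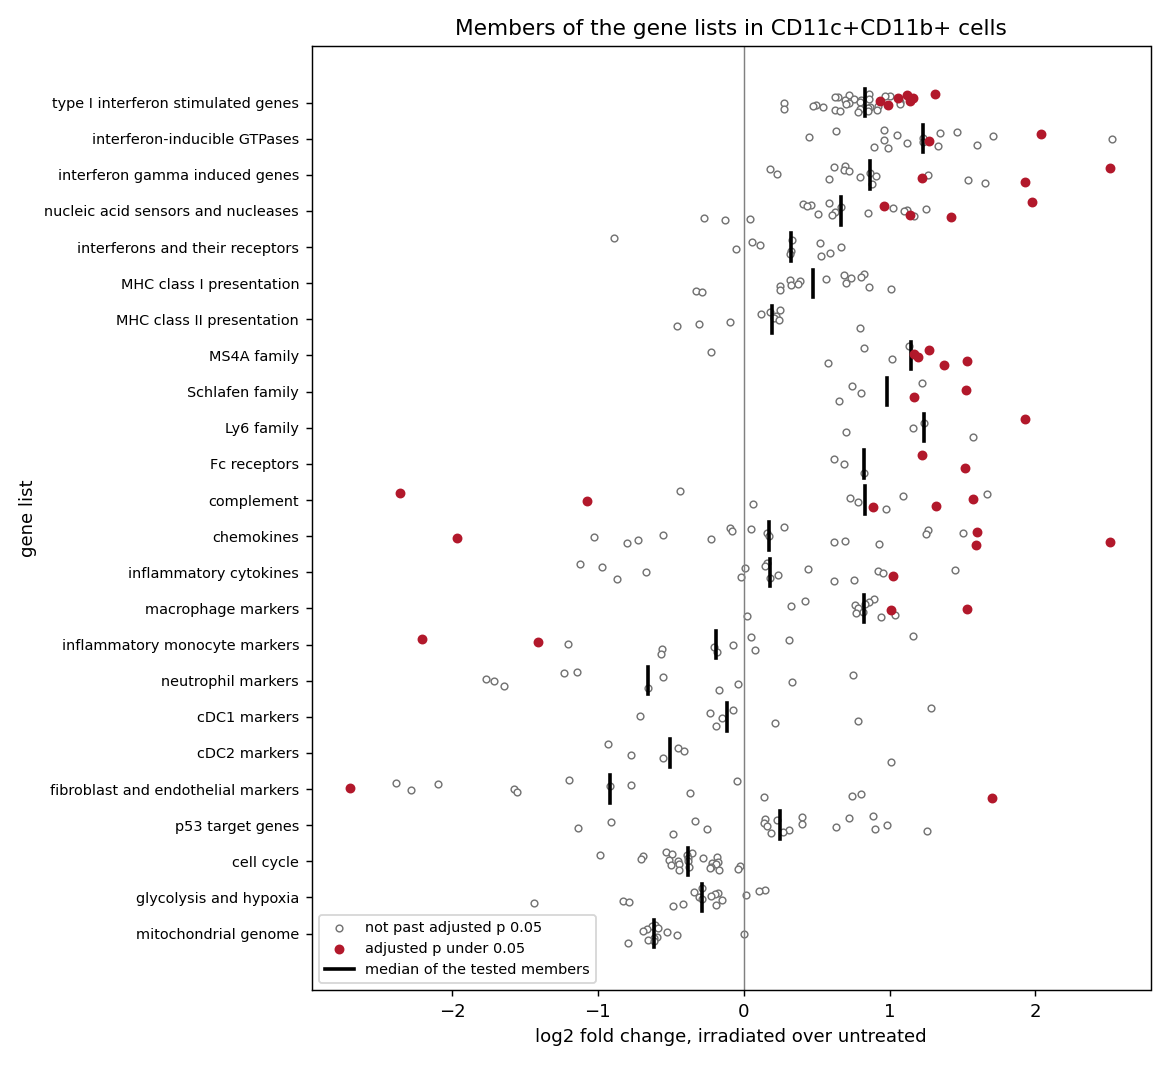
Log2 fold change, irradiated over untreated, of the tested members of 24 gene lists in CD11c+CD11b+ cells. Red points have an adjusted p under 0.05 by edgeR, open points do not, and black bars are medians. The medians of the type I interferon and GTPase lists lie at 0.83 and 1.23, and that of the fibroblast and endothelial list at -0.92.

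Chil3 (chr3:106147554-106167564), which encodes the chitinase-like protein Ym1 of monocytes and alternatively activated macrophages, fell furthest among monocyte markers. It had 47.2, 58.9, 45.4 and 54.3 CPM in the RT, RT+aSIRPa, RT+aPD1 and combined libraries, against 237 CPM in the untreated library. The irradiated values formed a narrow band far below the untreated one (log2 fold change -2.20 ± 0.15, adjusted p = 0.0216). Vcan, a matrix proteoglycan of classical monocytes, had 153, 179, 143 and 135 CPM in the RT, RT+aSIRPa, RT+aPD1 and combined libraries, against 406 CPM in the untreated one (log2 fold change -1.41 ± 0.16, adjusted p = 0.0381). These were the 2 of 12 measured inflammatory monocyte markers that fell, and 0 rose. The list was mixed, with a median log2 fold change of -0.19, 2 members above and 5 below the untreated library in all 4 irradiated ones, as were 29.6% and 29.5% of all genes tested. Fn1 had a log2 fold change of -1.21 (adjusted p = 0.0596), Ly6c2 one of 1.16 (adjusted p = 0.057) and Ccr2, the receptor that brings monocytes into tissue, one of 0.05. In pooled bulk RNA of this kind, fewer cells of a type and less RNA per cell cannot be told apart.

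Among the 44 genes that fell, Postn was the 1 of 15 fibroblast and endothelial markers and Mmp2 the 1 of 15 matrix and protease genes. Postn, which encodes periostin of the matrix, had 44.1, 39.2, 32.9 and 27.8 CPM in the RT, RT+aSIRPa, RT+aPD1 and combined libraries, against 234 CPM in the untreated one (log2 fold change -2.70 ± 0.21, adjusted p = 0.0341). Enpp2, the enzyme that makes lysophosphatidic acid, had 33.0, 49.1, 16.5 and 29.9 CPM in the RT, RT+aSIRPa, RT+aPD1 and combined libraries, against 277 CPM in the untreated one (log2 fold change -3.10 ± 0.42, adjusted p = 0.0466). Lpar1, a receptor of that lipid, averaged 9.81 ± 1.40 CPM after irradiation (SD, n = 4) and 30.8 CPM without it. Mmp2, a gelatinase of fibroblasts, averaged 30.5 ± 6.82 CPM after irradiation (SD, n = 4) and 95.5 CPM without it. Tgfb3 and Id3, a ligand and a target of the TGF-beta and BMP pathways, had log2 fold changes of -1.61 and -2.41. Of the other named genes, Calcrl, Heg1, Palld, Klf9 and Ercc6l2 passed downward, with log2 fold changes from -1.58 to -1.22.

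The fibroblast and endothelial marker list moved with these genes, and its part in them was not tested. Its summed level was 1511, 2345, 1094 and 1269 CPM in the RT, RT+aSIRPa, RT+aPD1 and combined libraries, against 5914 CPM in the untreated one. Of 15 measured members, 10 lay below the untreated library in all 4 irradiated ones and 2 above it. Of all genes tested, 29.5% lay below and 29.6% above. Postn fell and Kdr rose, and the median log2 fold change of the list was -0.92. No member was at 0 in any of the 5 libraries. Col3a1 had 395 to 1167 CPM in irradiated cells and 3571 CPM in untreated cells and did not pass (log2 fold change -2.39 ± 0.47, adjusted p = 0.0758). Kdr, the VEGF receptor of endothelium, rose, with 38.3, 33.5, 40.9 and 46.9 CPM in the RT, RT+aSIRPa, RT+aPD1 and combined libraries, against 12.2 CPM in the untreated one (log2 fold change 1.70 ± 0.22, adjusted p = 0.0451).

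Nedd4, a ubiquitin ligase, had the largest fitted fall of all genes, and most of its untreated level came from a single transcript row. That row held 7168 estimated counts in the untreated CD11c+CD11b+ library and 0 in each of the 4 irradiated ones. In the other myeloid populations the same row held 0 counts in 5 of the 8 irradiated libraries and 4292 to 5963 counts in the other 3. The 2 untreated ones there held 12665 and 11507 counts. Among the 147 called genes, Nedd4, Frmd4b and Slc28a2 owed most of their difference to transcript rows at 0 in a whole group. Of the 147, 8 share exon bases with a gene on the same strand and 39 with a gene on the opposite strand, where reads may have been assigned to either.

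The label calls these cells dendritic, and the markers of dendritic cells were low. Per kilobase of exon, the median level of 14 macrophage markers was 209, 214, 234 and 249 CPM per kb in the RT, RT+aSIRPa, RT+aPD1 and combined libraries, against 180 CPM per kb in the untreated one. The 8 markers of type 1 conventional dendritic cells (cDC1) had medians of 2.37 to 2.98 CPM per kb in irradiated cells and 3.68 CPM per kb in untreated cells. The 6 cDC2 markers had medians of 2.50 to 7.97 CPM per kb in irradiated cells and 10.2 CPM per kb in untreated cells. The cells are therefore called CD11c+CD11b+ cells here. The sorted integrins were present in all 5 libraries, with Itgax (CD11c) at 297 to 385 CPM in irradiated cells and 324 CPM in untreated cells, and Itgam (CD11b) at 1321 to 1621 CPM in irradiated cells and 1197 CPM in untreated cells.

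**Figure D3:**
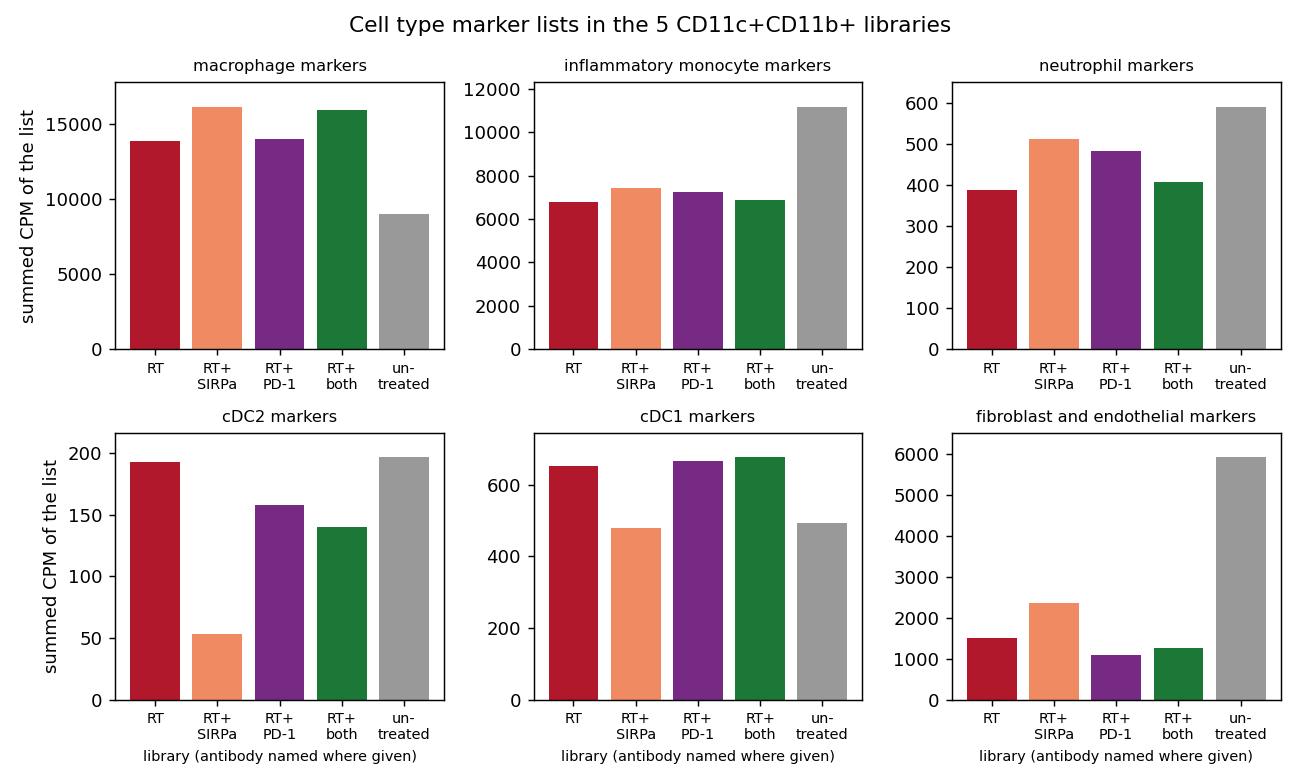
Summed CPM of 6 marker lists in the RT, RT+aSIRPa, RT+aPD1, combined and untreated CD11c+CD11b+ libraries, with 1 bar per library. The fibroblast and endothelial list sums to 1094 to 2345 CPM in irradiated cells against 5914 CPM untreated, and the cDC2 list is lowest, at 52.9 CPM, in the RT+aSIRPa library.

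Macrophage markers were higher after irradiation in 13 of 14 cases, in that all 4 irradiated libraries lay above the untreated one. Of all genes tested, 29.6% lay so. Of the 14, Ms4a7 and Trem2 rose and 0 fell, and the median log2 fold change was 0.83. Trem2, a lipid receptor of tumour macrophages, averaged 137 ± 2.81 CPM after irradiation (SD, n = 4) and 68.0 CPM without it (log2 fold change 1.01 ± 0.11). Csf1r and Adgre1, which define macrophages, had log2 fold changes of 0.42 and 0.89 and did not pass (adjusted p = 0.255 and 0.0563). The summed list had 13880, 16182, 14034 and 15924 CPM in the RT, RT+aSIRPa, RT+aPD1 and combined libraries, against 9005 CPM in the untreated one. The part of this difference in the interferon genes was not tested. Of 8 cDC1, 6 cDC2 and 8 mature dendritic cell markers, 0 passed, with median log2 fold changes of -0.11, -0.50 and 0.15. The cDC2 sum was 193, 52.9, 158 and 140 CPM in the RT, RT+aSIRPa, RT+aPD1 and combined libraries, against 197 CPM in the untreated one.

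Markers of other cell types did not pass. The 10 T cell markers summed to 15.1 to 24.2 CPM in irradiated cells and 22.7 CPM in untreated cells, and B cell markers to at most 9.57 CPM in irradiated cells and 7.04 CPM in untreated cells. Of 11 tested neutrophil markers 0 passed, with a median log2 fold change of -0.66 and sums of 388, 513, 484 and 407 CPM in the RT, RT+aSIRPa, RT+aPD1 and combined libraries, against 592 CPM in the untreated one. S100a9, an abundant calcium-binding protein of neutrophils, had 17.7, 105, 30.2 and 16.1 CPM in the RT, RT+aSIRPa, RT+aPD1 and combined libraries, against 99.6 CPM in the untreated one. The RT+aSIRPa library thus resembled the untreated one in this gene. The 6 NK cell markers summed to 36.3 to 77.1 CPM in irradiated cells and 56.1 CPM in untreated cells, and the plasmacytoid dendritic cell, mast cell and epithelial lists to 173 to 191, 11.7 to 37.4 and 49.2 to 90.5 CPM in irradiated cells, against 236, 29.1 and 134 CPM in untreated cells.

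The antibody targets and their ligands did not pass. Sirpa, the receptor blocked by anti-SIRPa, had 994 to 1155 CPM in irradiated cells and 651 CPM in untreated cells (log2 fold change 0.75 ± 0.15, adjusted p = 0.0833). Its ligand Cd47 had 429 to 527 CPM in irradiated cells and 371 CPM in untreated cells (adjusted p = 0.232). Pdcd1, which encodes PD-1, stayed at or below 5.49 CPM in all 5 libraries. All 4 irradiated libraries lay above the untreated one for Sirpa, Cd47 and Cd274.

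Lists of macrophage functions held few calls. Of 13 genes of dead cell uptake, 6 of the phagocytosis checkpoint, 10 of costimulation and 16 of lipid-associated macrophages 0 passed, with median log2 fold changes of 0.30, 0.26, 0.80 and 0.40. Trem2, also known from lipid-associated macrophages, rose but was counted among the macrophage markers. Of 12 genes of alternative activation only Chil3 passed downward, and of 15 matrix and protease genes only Mmp2 did. In either list 0 passed upward, with medians of -0.28 and -0.18. The lowest log2 fold changes of these lists, -2.94 and -1.71, belonged to members that did not pass. In all 4 irradiated libraries 5 and 7 members lay below the untreated one, and 3 and 2 above it. Of all genes tested, 29.5% lay below it and 29.6% above it.

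The p53 targets and cell cycle genes listed here did not pass. Of 20 p53 targets 0 passed in either direction, with a median log2 fold change of 0.25. In all 4 irradiated libraries 13 lay above the untreated one and 5 below it, beside 29.6% and 29.5% of all genes tested. Cdkn1a, the p53-induced cell cycle inhibitor, had 403 to 495 CPM in irradiated cells and 250 CPM in untreated cells (log2 fold change 0.89 ± 0.16, adjusted p = 0.0606). Mdm2, which restrains p53, had 125 to 166 CPM in irradiated cells and 106 CPM in untreated cells (adjusted p = 0.318). Of 25 cell cycle genes 0 passed, all 25 had a negative log2 fold change with a median of -0.38, and 7 lay below the untreated library in all 4 irradiated ones, a share near the 29.5% of all genes tested. Mki67 had 174, 266, 133 and 152 CPM in the RT, RT+aSIRPa, RT+aPD1 and combined libraries, against 261 CPM in the untreated one, and the groups overlapped.

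The 13 protein genes of the mitochondrial genome made up 0.739 to 0.964% of counts in irradiated libraries and 1.34% in the untreated one. Of these 13 genes 0 passed, and 12 lay below the untreated library in all 4 irradiated ones, as did 29.5% of all genes tested. The part of this share in the called genes was not tested. Of 17 glycolysis and hypoxia genes 0 passed, and 13 lay below the untreated library in all 4 and 1 above it. Of 13 immediate early and heat shock genes only Nr4a1 passed, downward, with a log2 fold change of -0.85. Of the 13, 9 lay below the untreated library in all 4 and 4 above it, beside 29.5% and 29.6% of all genes tested. Library totals were 26487616 to 35696925 counts in irradiated libraries and 28633876 in the untreated one, and log2 values correlated at 0.963 to 0.990 among irradiated libraries and at 0.944 to 0.982 between each of these and the untreated one.

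With radiotherapy as the sole treatment, the RT and untreated libraries can be set side by side without a test. Of the 16553 tested genes, 492 were at least 2-fold higher and 1062 at least 2-fold lower in the RT library, together 9.39%.

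How far the response was particular to CD11c+CD11b+ cells was tested as an interaction with each of the other CD11 fractions, with the treatment pool as a term. Against CD11c-CD11b+ cells, 73 of 18820 genes differed in their response (0.388%), 5 with a higher and 68 with a lower log2 fold change in CD11c+CD11b+ cells. Against CD11c+CD11b- cells, 257 of 18727 differed (1.37%), 45 higher and 212 lower. Of the 103 genes that rose, 2 differed from CD11c-CD11b+ cells and 4 from CD11c+CD11b- cells. Of the 44 that fell, 4 and 2 did. Without the pool term 2 genes differed in each test, and without the combined pool 8 differed from CD11c-CD11b+ cells and 38 from CD11c+CD11b- cells. Without the RT pool 96 differed from CD11c+CD11b- cells, without the RT+aPD1 pool 110 and without the RT+aSIRPa pool 845.

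The fall of Chil3 was not shared by CD11c-CD11b+ cells. There Chil3 had 311, 347, 316 and 344 CPM in the RT, RT+aSIRPa, RT+aPD1 and combined libraries, against 304 CPM in the untreated one. The difference of the log2 fold changes was -2.29 ± 0.16 (adjusted p = 0.00179), and it passed in all 9 alternative fits. In CD11c+CD11b- cells Chil3 had 0.50 to 4.78 CPM in irradiated and 5.88 CPM in untreated cells. The fall of Lif was not shared by the other fractions, where it averaged 27.4 ± 3.67 CPM after irradiation in CD11c-CD11b+ cells (SD, n = 4) against 29.3 CPM untreated, and 29.1 ± 1.14 CPM in CD11c+CD11b- cells (SD, n = 4) against 29.7 CPM untreated. The differences were -1.40 ± 0.18 (adjusted p = 0.0248) and -1.59 ± 0.16 (adjusted p = 0.0134). The latter did not pass in 3 of the 9 alternative fits.

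**Figure D4:**
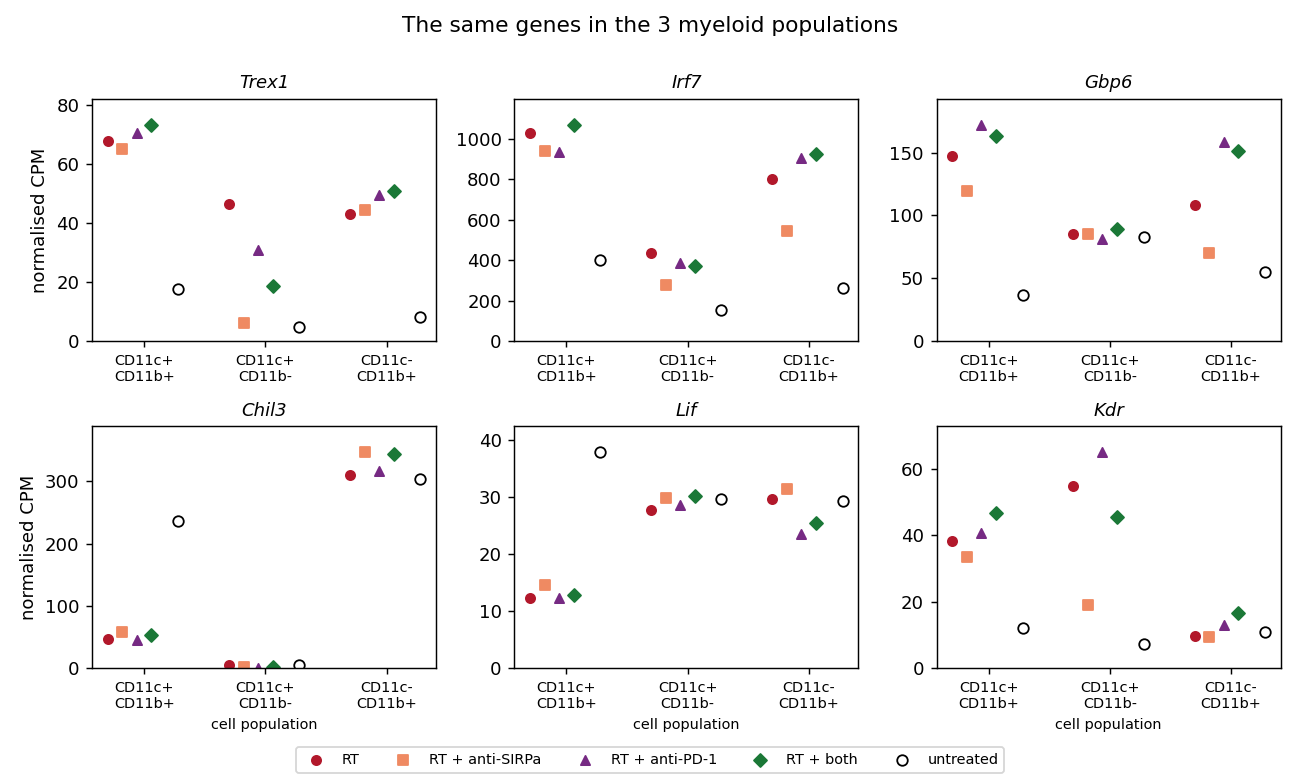
Normalised CPM of 6 genes in the 3 myeloid populations. Filled symbols are irradiated libraries and open circles untreated ones. Chil3 falls to 45.4 to 58.9 CPM in irradiated CD11c+CD11b+ cells against 237 CPM untreated, and has 311 to 347 CPM in irradiated CD11c-CD11b+ cells against 304 CPM untreated.

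Gbp6 differed between the CD11c+ fractions and Kdr between the CD11b+ fractions, but these differences did not pass in 4 and 5 of 9 alternative fits. In CD11c+CD11b- cells it had 85.2, 85.2, 80.9 and 89.2 CPM in the RT, RT+aSIRPa, RT+aPD1 and combined libraries, against 82.8 CPM in the untreated one, and the difference of the log2 fold changes was 1.90 ± 0.23 (adjusted p = 0.0212). The difference from CD11c-CD11b+ cells did not pass (0.99 ± 0.26, adjusted p = 0.215). Kdr differed from CD11c-CD11b+ cells, where it had 9.44 to 16.7 CPM in irradiated and 11.1 CPM in untreated cells (difference 1.62 ± 0.22, adjusted p = 0.0272), and not detectably from CD11c+CD11b- cells (difference -0.94 ± 0.55, adjusted p = 0.433). Pdia6, a protein disulfide isomerase, differed from CD11c-CD11b+ cells by 1.72 ± 0.23 (adjusted p = 0.0272), with 69.2 to 84.3 CPM in irradiated and 28.3 CPM in untreated CD11c+CD11b+ cells. In CD11c-CD11b+ cells it had 71.6 to 102 CPM in irradiated and 103 CPM in untreated cells, so between these fractions the untreated CD11c+CD11b+ library stood apart. In CD11c+CD11b- cells Pdia6 had 112, 104, 26.2 and 79.9 CPM in the RT, RT+aSIRPa, RT+aPD1 and combined libraries, against 86.3 CPM untreated. The RT+aPD1 library there was thus as low.

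Trex1, Irf7 and Cxcl11 did not differ detectably from either fraction. For Trex1 the differences were -0.50 ± 0.16 from CD11c-CD11b+ cells (adjusted p = 0.339) and -0.22 ± 0.98 from CD11c+CD11b- cells (adjusted p = 0.937). In CD11c+CD11b- cells Trex1 had 46.3, 5.99, 30.7 and 18.7 CPM in the RT, RT+aSIRPa, RT+aPD1 and combined libraries, against 4.83 CPM in the untreated one, so its irradiated values spread much more than in CD11c+CD11b+ cells. For Irf7 the differences were -0.24 ± 0.26 and -0.03 ± 0.22 (adjusted p = 0.858 and 0.962). Cxcl11 had 6.41 to 13.2 CPM in irradiated and 1.97 CPM in untreated CD11c-CD11b+ cells. In CD11c+CD11b- cells it had 0.99 to 2.33 CPM in irradiated and 1.01 CPM in untreated cells. At so low a level the lack of a call does not show a shared response. Over the type I interferon list the median log2 fold change was 0.83 in CD11c+CD11b+ cells, 1.16 in CD11c-CD11b+ cells and 0.40 in CD11c+CD11b- cells, and of its 36 genes 0 differed from CD11c-CD11b+ cells and 1 from CD11c+CD11b- cells. Over the GTPases it was 1.23, 1.19 and 0.26 in the same populations, with 0 and 2 of 18 genes differing.

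The marker lists were also read by the interaction test at an adjusted p under 0.05. Of inflammatory monocyte and neutrophil markers, 5 of 12 and 2 of 13 had a lower log2 fold change than in CD11c-CD11b+ cells. A higher one was found for 0, and 0.388% of all genes tested differed in either direction. Relative to CD11c+CD11b- cells, 5 of 6 cDC2, 3 of 8 cDC1 and 4 of 8 mature dendritic cell markers passed as lower and 0 as higher. There 1.37% of all genes tested differed in either direction. Without the pool term only 2 genes differed in each test. Of single genes against CD11c-CD11b+ cells, the lower ones included Retnlg (-2.77), Slpi (-2.64), Cxcl3 (-2.62) and Cd24a (-2.22). Against CD11c+CD11b- cells they included Cd24a (-4.18), Itgae (-3.79), Plet1 (-3.76), H2-Ob (-3.62) and Clec10a (-3.60). Within CD11c+CD11b+ cells none of these single genes passed, with log2 fold changes from -1.77 for Retnlg to -0.16 for Plet1. For Itgae, which encodes CD103, irradiated cells averaged 9.60 ± 2.60 CPM in the CD11c+CD11b+ fraction (SD, n = 4) against 15.7 CPM untreated, and 174 ± 70.9 CPM in the CD11c+CD11b- fraction (SD, n = 4) against 20.7 CPM untreated. The cDC1 list had a median log2 fold change of -0.11 in CD11c+CD11b+ cells and 2.88 in CD11c+CD11b- cells. Cadm1 had a log2 fold change 2.16 higher than in CD11c-CD11b+ cells, and Lipg one 2.52 higher than in CD11c+CD11b- cells. Within CD11c+CD11b+ cells their log2 fold changes were -0.15 and 1.52, and neither passed. Eif3j2, Scarna13 and C5ar2 ranked among the largest too, but each was listed at 0 in at least 1 of the libraries compared, so no size is given, and the signal recognition particle RNAs Rn7s1, Rn7s2 and Rn7s6 are near-identical copies whose levels varied from 2334 to 9659 CPM for Rn7s1 among irradiated CD11c+CD11b+ libraries.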

How the data were processed

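RNA of sorted cells was sequenced in 1 library per population and treatment. Per the submitters' processing notes, FastQC 0.11.8, HISAT2, StringTie, edgeR 3.34.0 and build GRCm38 were used, and the versions of the aligner and of StringTie are not stated there. The deposited values are estimated counts per transcript, and all were whole numbers. They were summed to 55260 genes through GENCODE M21, which matched 141469 of 142699 transcripts. edgeR 4.0.16 in R 4.3.3 (TMM scaling, filterByExpr with a minimum count of 10) gave quasi-likelihood tests with Benjamini-Hochberg adjustment over all genes, and DESeq2 1.42.0 was an alternative. The comparison leaves 3 residual degrees of freedom, and p-values measure the spread between differently treated pools. Responses of populations were compared in 1 fit per other fraction, with terms for pool, population and the interaction of population with irradiation. Pool was a term because the fractions of a treatment came from the same pooled tumours. The scripts were tested on simulated data. The members, gene lists and tests were chosen with earlier results of these data known. Genes were named by size of change among called genes at 10 CPM or more, up to 15 per direction, by list and by role, and others after their values were seen, as stated. A called gene is not reported here. Alternatives changed scaling, filter, test, covariates and libraries; 2 kinds, a filter within treatment groups and scaling by library totals, were chosen after seeing the data.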

Additional observations from a re-analysis of the deposited data

Results flagged for a closer look

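Within the 4 irradiated CD11c+CD11b+ libraries, 11 of 162 genes and lists examined had 1 library standing apart from the other 3, judged by the gap to its nearest neighbour as a share of the whole range. Chance flags about 1 in 20 such groups. The RT+aSIRPa library was the one apart in 8 of the 11. It was lowest for H2-Aa (0.896), Ly6c1 (0.863), Ms4a6b (0.832), the cDC1 markers (0.874), the MS4A family (0.943) and the Schlafen family (0.864), and highest for Retnlg (0.833) and S100a9 (0.842). The RT+aPD1 library was lowest for Cxcl10 (0.914). The combined library was highest for C5ar2 (0.955) and Klf9 (0.925).

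The response to irradiation differed between CD11c+CD11b+ and CD11c-CD11b+ cells, by the interaction test, for Chil3 (-2.29), Cd24a (-2.22), Cxcl3 (-2.62), Retnlg (-2.77), Slpi (-2.64), Lif (-1.40), Kdr (1.62), Pdia6 (1.72) and Cadm1 (2.16), as differences of log2 fold changes. It differed from that of CD11c+CD11b- cells for Cd24a (-4.18), Itgae (-3.79), Plet1 (-3.76), H2-Ob (-3.62), Clec10a (-3.60), Ercc6l2 (-3.12), Lif (-1.59), Gbp6 (1.90), Lipg (2.52), Rn7s1 (2.60), Rn7s2 (2.60) and Rn7s6 (2.43). Each difference from CD11c+CD11b- cells was lost without the pool term. Of 9 alternative fits, Cd24a and Rn7s2 did not pass in 5, and Ercc6l2, Gbp6, Lipg, Rn7s1 and Rn7s6 in 4. Clec10a, H2-Ob and Lif did not pass in 3, Itgae in 2 and Plet1 in 1.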

How the results depend on the processing

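The 147 genes called after irradiation became 4 with no filter on low counts, 1268 by the DESeq2 Wald test, 2342 with terms for each antibody, 47 with all 15 myeloid libraries in 1 fit, 90 with scaling by library totals and 72 with the filter within treatment groups, and 0 to 1910 when 1 irradiated library was left out. Of the calls, 70.1% were higher in irradiated cells, against 59.6% by DESeq2, 45.7% with antibody terms and 44.7% in the joint fit. Scaling by library totals shifted the median log2 fold change of all genes by -0.085. The 257 genes whose response differed from CD11c+CD11b- cells became 12 with no filter, 1125 by DESeq2, 2 with no replicate block (no pool term) and 38 to 845 with a pool left out. The 73 that differed from CD11c-CD11b+ cells became 14 with no filter, 371 by DESeq2, 2 with no replicate block and 8 to 106 with a pool left out. The count of genes with the untreated library outside the 4 irradiated libraries was 9789, and 6165 among genes of 10 or more mean CPM. The cause of these changes was not tested. No paired analysis was possible for irradiation itself because each treatment has 1 CD11c+CD11b+ library.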
